A study of Mus musculus with 8 samples.

Results

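Complex I of the respiratory chain takes electrons from NADH, passes them to ubiquinone and pumps protons across the inner mitochondrial membrane. Its nuclear subunits and several of the proteins that build it carry gene names that begin with Nduf. The Nduf genes were taken by name: every single-symbol gene of the authors' deposited table whose symbol reads Nduf, then a, b, c, s, v, ab or af, then a number. The rule gave 42 genes of 22310 with a single symbol in that table, and 40 of them had a level on each array among 19938 genes tested. A level is that of a transcript cluster, the array's unit for a whole transcript, and both clusters of Ndufb4 share their name with Ndufb4b. The 40 hold 6 core subunits, 28 supernumerary subunits, 4 assembly factors, and Ndufa4 with its paralogue Ndufa4l2. The name goes against the function for Ndufa4, which is now counted with complex IV.

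The arrays came from triceps muscle of 4 wild-type control mice and 4 Nf1Prx1 mice, all 3 months old and on standard chow, with one animal on each Affymetrix Mouse Gene 1.0 ST array. Nf1Prx1 mice lack Nf1, the gene of the Ras inhibitor neurofibromin, where Cre under the Prx1 limb enhancer has acted, which is the mesenchyme of the limb bud. The fibres themselves descend mostly from other cells, and the labels do not say which cells of the muscle lost Nf1. The Nf1 cluster itself had levels of 8.82, 8.92, 8.98 and 8.69 in control and 8.81, 8.63, 8.73 and 8.72 in Nf1Prx1 triceps (log2, replicates 1 to 4), a difference of -0.13 (SE 0.09, limma adjusted p = 0.599), and whether its probes lie in the deleted part was not given in the sources used here.

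Muscle fibres hold many mitochondria, and slow and fast oxidative fibres more than fast glycolytic ones. In complex I an N module oxidises NADH and a Q module reduces ubiquinone, both in the matrix arm. A proximal and a distal part of the membrane arm pump protons. Assembly factors join these parts and then leave. The core subunits of the membrane arm are encoded by the mitochondrial genome and those of the matrix arm by the nucleus. Nuclear respiratory factor 1 (NRF1), GABP, the estrogen-related receptors (ERR) and YY1 are known to act on many nuclear genes of this complex.

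The start regions of 5 genes are shown because these passed in the fit with paired replicate numbers: the members Ndufaf4, Ndufa1, Ndufa4 and Ndufa7, and the assembly factor Ndufaf5. They are the 250 bases before the annotated start (for Ndufa7 the upstream one of its 2 starts), from RefSeq on mouse build GRCm38.p6, read 5′ to 3′ toward the gene, with the NRF1 letters GCGCANGCG (either strand) in capitals.
Ndufaf4 (chr4:24897833-24898082, plus strand): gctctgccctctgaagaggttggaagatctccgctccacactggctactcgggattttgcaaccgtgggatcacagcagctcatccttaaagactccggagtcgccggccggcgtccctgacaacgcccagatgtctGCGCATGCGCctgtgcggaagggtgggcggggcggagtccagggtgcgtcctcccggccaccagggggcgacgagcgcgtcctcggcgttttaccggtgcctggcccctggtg
Ndufa1 (chrX:37191239-37191488, minus strand): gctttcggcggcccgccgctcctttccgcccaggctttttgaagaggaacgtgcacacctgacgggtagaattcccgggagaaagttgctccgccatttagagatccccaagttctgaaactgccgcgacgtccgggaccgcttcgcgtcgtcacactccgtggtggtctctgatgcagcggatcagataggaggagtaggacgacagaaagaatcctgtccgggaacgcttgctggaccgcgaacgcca
Ndufa4 (chr6:11907451-11907700, minus strand): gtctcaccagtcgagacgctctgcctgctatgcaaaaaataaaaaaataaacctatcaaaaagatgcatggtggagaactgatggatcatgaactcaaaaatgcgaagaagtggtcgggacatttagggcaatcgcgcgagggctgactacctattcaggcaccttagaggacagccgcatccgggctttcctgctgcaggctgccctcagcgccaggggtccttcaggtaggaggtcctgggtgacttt
Ndufa7 (chr17:33824322-33824571, plus strand): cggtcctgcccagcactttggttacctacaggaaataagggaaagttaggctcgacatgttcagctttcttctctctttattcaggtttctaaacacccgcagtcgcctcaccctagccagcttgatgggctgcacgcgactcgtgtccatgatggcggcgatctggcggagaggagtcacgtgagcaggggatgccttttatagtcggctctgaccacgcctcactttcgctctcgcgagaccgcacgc
Ndufaf5 (chr2:140170396-140170645, plus strand): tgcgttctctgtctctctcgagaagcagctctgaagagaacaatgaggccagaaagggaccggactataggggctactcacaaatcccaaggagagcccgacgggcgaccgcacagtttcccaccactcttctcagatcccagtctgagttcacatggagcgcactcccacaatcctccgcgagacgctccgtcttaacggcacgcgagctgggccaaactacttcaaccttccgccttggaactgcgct

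Counted back from the base before the start (-1), the first of 2 overlapping matches on opposite strands opens at -113 for Ndufaf4. The other 4 stretches hold no match. Over windows from 250 bases before to 50 after a start, on both strands, 37 members had a window and 9 held the NRF1 letters (Ndufa11, Ndufa5, Ndufa6, Ndufa8, Ndufaf4, Ndufb4, Ndufb10, Ndufs5 and Ndufs6). That is 24.3% of the members, against 6.25% of all 32851 windows. YY1 letters (AAGATGGCG) were in 5 members or 13.5%, against 1.4% of windows, and GABP letters (ACCGGAAG) were in 4 or 10.8%, against 2.30%. ERR letters (AAGGTCA) were in 3 or 8.11%, against 4.72%. The NRF1 and YY1 letters were shortened by 1 base after a first search with longer forms, so their shares are not from letters fixed beforehand. A gene with several annotated starts has several windows, and a member was counted if any of its windows held the letters, while the share of all is over windows. Overlap between matches of different motifs was not removed, and a match is a description of sequence and not of binding.

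Nduf transcripts were lower on average in Nf1Prx1 than in control triceps, and the shift was uneven among animals. Of the 40 measured members 37 had a lower mean, against 58.3% of all genes, and the median member differed by -0.33 on the log2 scale against -0.04 for all genes. A difference of at least 0.30 downward was seen for 23 members, against 12.1% of all genes. The limma fit without pairing called 0 of 19938 genes (0.0%, smallest adjusted p = 0.0746), and so 0 members. At a limma unadjusted p under 0.05, 15 members were lower and 0 higher, against 9.04% of all genes lower. With the replicate number of the titles as a block (the paired fit) 4 members passed, all lower, against 5.0% of all genes lower: Ndufa4, Ndufa1, Ndufaf4 and Ndufa7. Without the arrays numbered 1, 2, 3 or 4 in turn it called 1 (Ndufa4), 1 (Ndufa4), 3 (Ndufa1, Ndufa4 and Ndufaf4) and 0 members. The word "fell" is used only of genes that passed in this paired fit. The pairing was read from the data, so the p values of that fit may be too small. For 8 members every Nf1Prx1 array was below every control, against 6.04% of all genes: Ndufa1, Ndufa3, Ndufa4, Ndufa5, Ndufa13, Ndufaf3, Ndufaf4 and Ndufs4. With whole muscle, less RNA per fibre, fewer fibres among other cells and a different mix of fibre types cannot be told apart.

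Array by array, the second Nf1Prx1 animal was lowest. Relative to the mean of the controls, the median member stood at -0.33, -0.67, -0.10 and -0.20 on Nf1Prx1 1 to 4 and at 0.21, -0.05, -0.08 and -0.05 on control 1 to 4. Nf1Prx1 2 had the lowest level of the 8 arrays for 34 of 40 members, and control 1 the highest for 25. Below every control were 26, 37, 13 and 23 members on Nf1Prx1 1 to 4, against 33.6%, 32.4%, 20% and 23.1% of all genes. Below the control mean were 34, 40, 29 and 36 members on Nf1Prx1 1 to 4, and 6, 29, 31 and 29 on control 1 to 4. Nf1Prx1 3 was thus no lower than controls 2 to 4 by this count, and control 1 raised the control mean.

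**Figure D1:**
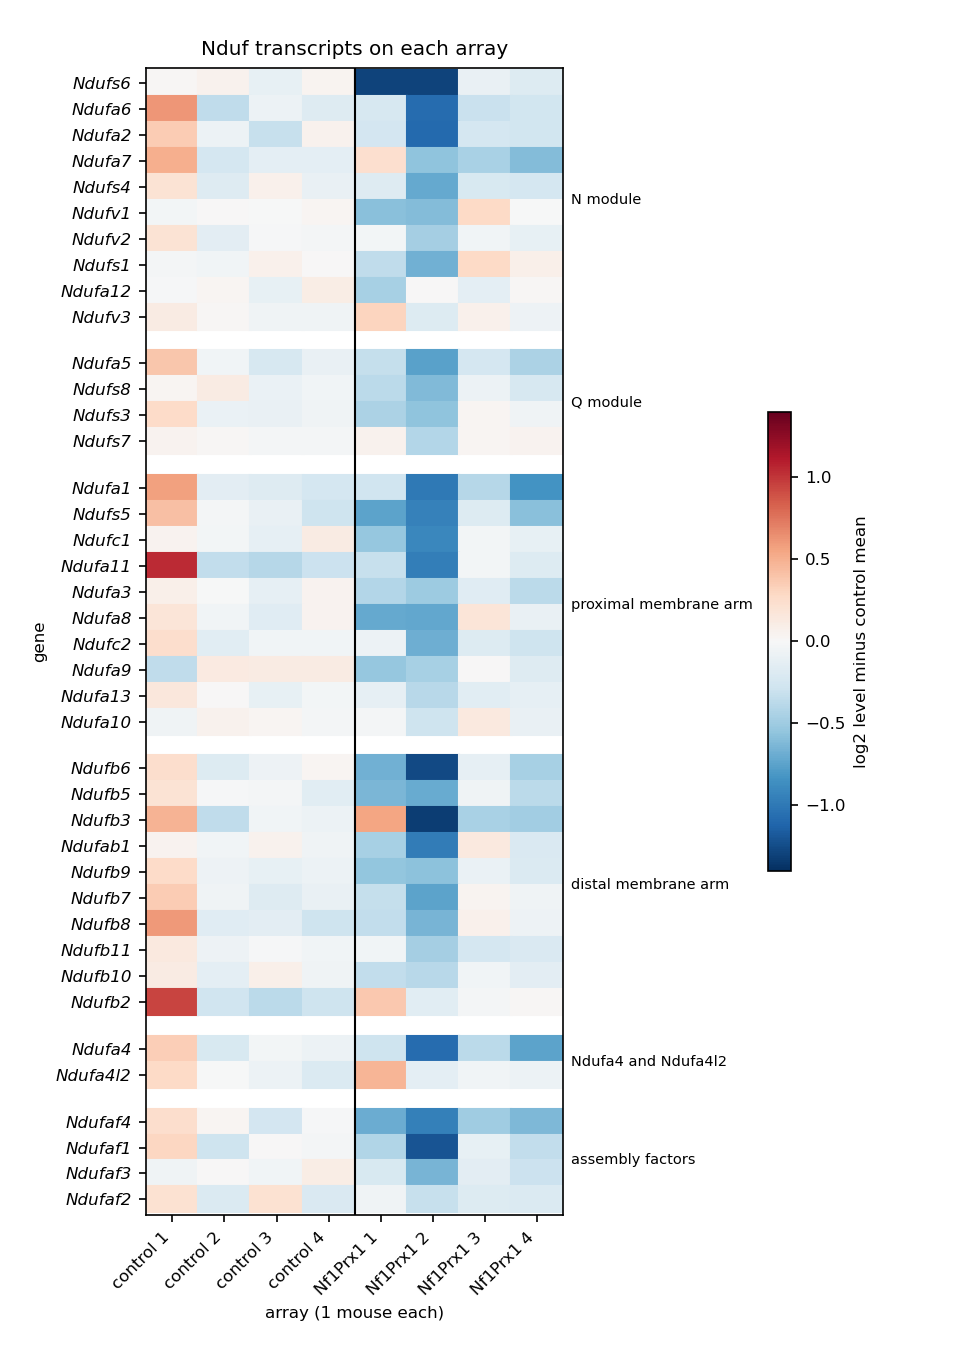
Heat map of 40 Nduf transcripts (rows, grouped by place in complex I) on the 8 arrays (columns, one mouse each), with colour giving the log2 level minus the control mean of that gene. The column of Nf1Prx1 2 is the bluest, and control 1 is red for most genes.

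Without Nf1Prx1 2 the members' median was -0.20, against -0.05 for all genes. A lower mean was then kept by 35 of 40, against 61.3% of all genes, 7 had a limma unadjusted p under 0.05 against 7.66%, and 0 passed after adjustment. The 3 remaining Nf1Prx1 arrays lay below all controls for 8 members, against 8.67% of all genes. With control 1 and Nf1Prx1 1 left out as well, the median was -0.11 and 29 of 40 were lower, against -0.05 and 61.6% for all genes.

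**Figure D2:**
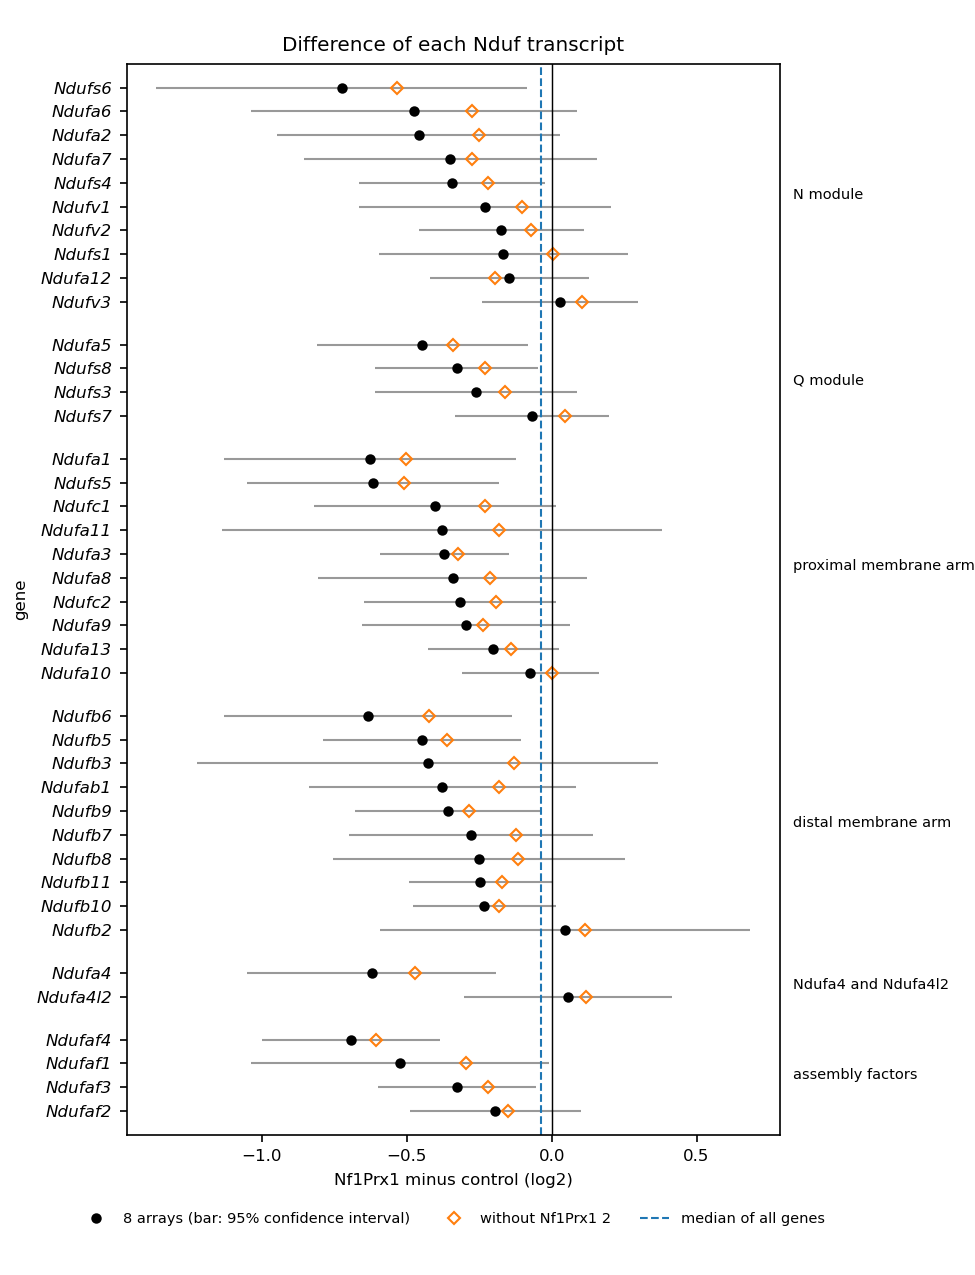
Difference of each of the 40 Nduf transcripts between Nf1Prx1 and control (log2, horizontal axis), as black points with 95% confidence intervals from the limma fit on 8 arrays and as open diamonds without Nf1Prx1 2. The points of 37 genes lie left of 0, most intervals reach it, and most diamonds lie closer to 0 than the points.

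The N module, where NADH is oxidised, had 10 measured members with a median of -0.29, and 9 had a lower mean. Ndufs6, a late-joining subunit of this module, had the lowest difference of all members. Its levels were 10.47, 10.51, 10.33 and 10.49 in control and 9.15, 9.15, 10.35 and 10.26 in Nf1Prx1 triceps, which is -0.73 (SE 0.28, limma adjusted p = 0.310). Nf1Prx1 1 and 2 were far below the controls while Nf1Prx1 3 and 4 were within or just below their range. Ndufa7, a supernumerary subunit at the foot of the module, fell, at 10.72, 9.97, 10.08 and 10.08 in control and 10.45, 9.65, 9.76 and 9.61 in Nf1Prx1 triceps. The difference was -0.35 (SE 0.22, limma adjusted p = 0.543 without pairing and 0.0417 in the paired fit). The call was lost in each paired fit that left out the arrays of 1 number. Each Nf1Prx1 array was below the control of the same number, but Nf1Prx1 1 was above controls 2 to 4. Ndufs4, whose loss gives mice an encephalopathy like Leigh syndrome, had levels of 12.38, 12.00, 12.25 and 12.07 in control and 11.99, 11.46, 11.95 and 11.93 in Nf1Prx1 triceps, a difference of -0.34 (SE 0.14, limma adjusted p = 0.338). The groups did not overlap, and the gap between Nf1Prx1 1 and control 2 was small.

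Of the core subunits of the N module, Ndufv1, which holds the flavin that accepts electrons from NADH, had levels of 11.25, 11.30, 11.29 and 11.32 in control and 10.71, 10.68, 11.57 and 11.29 in Nf1Prx1 triceps (-0.23, SE 0.19, limma adjusted p = 0.663). Its controls lay within a narrow range, with Nf1Prx1 1 and 2 below and Nf1Prx1 3 above. Ndufs1, an iron-sulphur subunit, was also lowest on Nf1Prx1 1 and 2, at 10.99, 10.97, 11.09 and 11.02 in control and 10.66, 10.34, 11.30 and 11.10 in Nf1Prx1 triceps (-0.17, SE 0.19, limma adjusted p = 0.769), and without Nf1Prx1 2 its difference was 0.0036. Ndufv2, another iron-sulphur subunit, differed by -0.17 (SE 0.13). Ndufv3, a supernumerary subunit, was the one member of the module with a higher mean, by 0.03 (SE 0.12).

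The Q module had 4 measured members, all with a lower mean and a median of -0.29, and none passed in either fit. Ndufa5, a supernumerary subunit of this module, had levels of 10.17, 9.73, 9.54 and 9.67 in control and 9.44, 9.02, 9.53 and 9.33 in Nf1Prx1 triceps, which is -0.45 (SE 0.16, limma adjusted p = 0.274). The groups were apart by 0.01 between control 3 and Nf1Prx1 3. Ndufs8, a core iron-sulphur subunit, was at 12.16, 12.24, 12.03 and 12.08 in control and 11.75, 11.51, 12.05 and 11.89 in Nf1Prx1 triceps (-0.33, SE 0.12, limma adjusted p = 0.299). Nf1Prx1 3 lay inside the control range and the other Nf1Prx1 arrays below it. Ndufs3, a core subunit, differed by -0.26 (SE 0.15). Ndufs7, whose cluster hands electrons to ubiquinone, had the highest control mean of all members, 13.45 ± 0.04 (SD, n = 4), and 13.51, 13.04, 13.48 and 13.50 in Nf1Prx1 triceps, so that Nf1Prx1 2 alone was below the controls (-0.07, 95% interval -0.33 to 0.20). Over the 6 measured core subunits the median was -0.20, and without Nf1Prx1 2 it was -0.09 with 4 of 6 lower. The other 28 measured subunits had a median of -0.35. The difference between core and other subunits was not tested.

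The proximal membrane arm had 10 members, all with a lower mean, and a median of -0.36. Ndufa1, a small X-linked subunit needed early in assembly, fell. Its levels were 9.64, 8.92, 8.89 and 8.82 in control and 8.79, 8.07, 8.67 and 8.23 in Nf1Prx1 triceps, 1.54-fold lower (-0.63, SE 0.22, limma adjusted p = 0.268 without pairing and 0.0262 in the paired fit). The groups did not overlap, with the highest Nf1Prx1 array 0.03 below the lowest control, and control 1 stood far above the other controls. Ndufs5, which faces the intermembrane space, had levels of 10.15, 9.70, 9.62 and 9.44 in control and 8.98, 8.78, 9.54 and 9.14 in Nf1Prx1 triceps, 1.53-fold lower (-0.62, SE 0.19, limma adjusted p = 0.217, paired 0.0792). Nf1Prx1 3 lay above control 4 and the rest of the Nf1Prx1 arrays below all controls. A second cluster named for Ndufs5 and a pseudogene, Ndufs5-ps, differed by -0.64, so the probes of the gene and of this copy may share RNA. Ndufa3, a subunit with a single membrane helix, had the smallest unadjusted p of the membrane arm, at 12.28, 12.20, 12.08 and 12.25 in control and 11.79, 11.69, 12.03 and 11.82 in Nf1Prx1 triceps (-0.37, SE 0.10, limma adjusted p = 0.176). Its spread was narrower than that of Ndufa1 and its groups did not overlap. Ndufa10 was the member of this arm with the smallest difference, -0.07 (95% interval -0.31 to 0.16).

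The distal membrane arm had 10 measured members with a median of -0.32, 9 of them lower, and none passed in either fit. Ndufb6, a supernumerary subunit, was at 11.82, 11.38, 11.50 and 11.60 in control and 10.90, 10.31, 11.45 and 11.11 in Nf1Prx1 triceps, 1.55-fold lower (-0.63, SE 0.22, limma adjusted p = 0.261, paired 0.0592). Nf1Prx1 3 lay above control 2 and the other Nf1Prx1 arrays below all controls. Ndufb5 differed by -0.45 (SE 0.15), Ndufb9, which binds the acyl carrier protein Ndufab1, by -0.36 (SE 0.14), and the X-linked Ndufb11 by -0.25 (SE 0.11), each with a limma adjusted p of at least 0.253. In all these the lowest array was Nf1Prx1 2. Ndufb2 had a higher mean by 0.05 (SE 0.28), with control 1 at 9.78 against 8.46 to 8.56 on the other controls. The other measured members of this arm, Ndufb3, Ndufab1, Ndufb7, Ndufb8 and Ndufb10, had differences from -0.43 to -0.23. Both clusters of Ndufb4, shared in name with Ndufb4b, were lower by the mean too, at -0.27 and -0.23.

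Ndufa4 fell as well. It had levels of 12.31, 11.74, 11.93 and 11.88 in control and 11.67, 10.89, 11.59 and 11.22 in Nf1Prx1 triceps, 1.54-fold lower (-0.62, SE 0.19, limma adjusted p = 0.210 without pairing and 0.0182 in the paired fit). The groups did not overlap, with Nf1Prx1 1 just under control 2. Its paralogue Ndufa4l2, known as a target of hypoxia-inducible factor, had 8.37, 8.08, 8.01 and 7.89 in control and 8.56, 7.95, 8.04 and 8.01 in Nf1Prx1 triceps (0.06, 95% interval -0.30 to 0.42). Whether the pair differ in their change was not tested.

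The 4 assembly factors with Nduf names all had a lower mean, with a median of -0.43. Ndufaf4, which works with Ndufaf3 on the early Q module, had the smallest limma unadjusted p of all members, 0.000635. It fell from 9.70, 9.48, 9.19 and 9.44 in control to 8.76, 8.5, 8.95 and 8.82 in Nf1Prx1 triceps, 1.62-fold lower (-0.69, SE 0.14, limma adjusted p = 0.125 without pairing and 0.0262 in the paired fit). The groups were apart by 0.24, between control 3 and Nf1Prx1 3. An exact permutation test gave p = 0.0286, the smallest that 4 arrays against 4 allow (two-sided). Every gene whose groups do not overlap has this p, so it adds nothing to the gap. Without Nf1Prx1 2 the difference was -0.61. Ndufaf3 had 9.25, 9.32, 9.26 and 9.42 in control and 9.09, 8.66, 9.17 and 9.01 in Nf1Prx1 triceps (-0.33, SE 0.12, limma adjusted p = 0.283), and its groups did not overlap. Ndufaf1, part of the complex that builds the ND2 module, was at 9.58, 8.99, 9.28 and 9.25 in control and 8.85, 8.07, 9.16 and 8.93 in Nf1Prx1 triceps (-0.52, SE 0.23, limma adjusted p = 0.362). Nf1Prx1 3 lay inside the control range and Nf1Prx1 2 far below it. Ndufaf2, a paralogue of Ndufa12 that acts late, had the lowest control mean of the members, 8.08 ± 0.25 (SD, n = 4), and differed by -0.19 (SE 0.13).

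Ndufaf5 lies outside the naming rule, because the authors' table carries it as 2310003L22Rik, and it is given from the list of assembly factors. It hydroxylates the core subunit Ndufs7. Control levels were 7.99, 8.01, 8.01 and 7.97 and Nf1Prx1 levels 7.20, 7.11, 7.46 and 7.25. Ndufaf5 fell 1.67-fold (-0.74, SE 0.09, limma unadjusted p = 2.67e-05, adjusted 0.104 without pairing and 0.00965 in the paired fit). The controls agreed within 0.04 and every Nf1Prx1 array was at least 0.51 lower. Without Nf1Prx1 2 the difference was -0.69, so this gene depended less on that array than the median member. Ndufaf6 and Ndufaf7, also outside the rule, differed by -0.34 (SE 0.18) and -0.23 (SE 0.10) and did not pass in either fit.

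**Figure D3:**
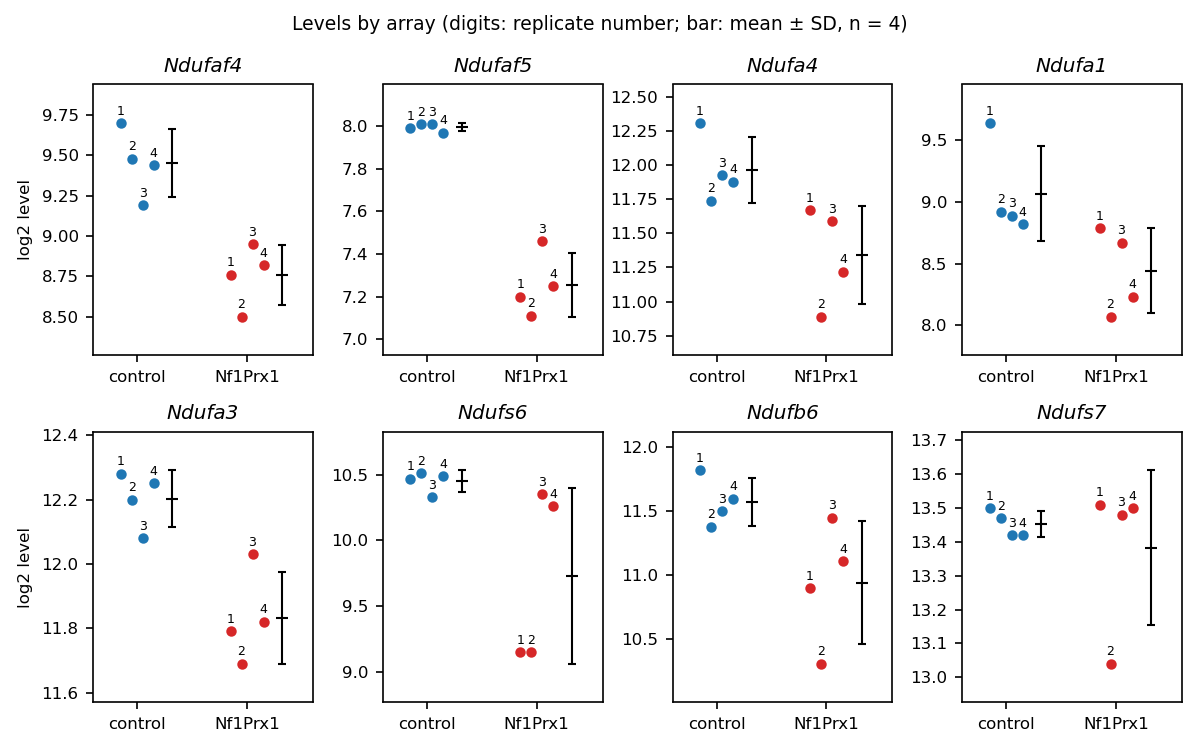
Levels (log2, vertical axes with a scale for each gene) of 8 genes on each array, with digits for the replicate number and bars for the group mean and SD (n = 4). Ndufaf4, Ndufaf5, Ndufa4, Ndufa1 and Ndufa3 have no overlap between groups, Ndufs6 and Ndufb6 overlap through Nf1Prx1 3, and Ndufs7 differs on Nf1Prx1 2 alone.

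Other factors of complex I assembly were lower too. Of 12 measured on a list of assembly factors without Nduf names all had a lower mean (median -0.37), against 58.3% of all genes. In the paired fit 3 fell, against 5.0% of all genes: Dmac1, of the distal arm, and Tmem186 and Tmem126b, both of the ND2-building complex. Dmac1 was at 10.17, 9.89, 10.16 and 9.90 in control and 9.78, 9.24, 9.74 and 9.67 in Nf1Prx1 triceps (-0.42, SE 0.14, limma adjusted p = 0.240, paired 0.0377), with no overlap. Tmem186 differed by -0.38 (SE 0.14, paired adjusted p = 0.0361) and Tmem126b by -0.44 (SE 0.21, paired adjusted p = 0.0255). Nubpl, which delivers iron-sulphur clusters to complex I, differed by -0.33 (SE 0.12, limma adjusted p = 0.267) and did not pass. Of the 7 subunits encoded by the mitochondrial genome, ND3 alone had a named cluster. Its levels were 13.39, 13.19, 13.50 and 13.45 in control and 13.26, 13.30, 13.37 and 13.30 in Nf1Prx1 triceps. Its difference was -0.07 (95% interval -0.28 to 0.13), and on Nf1Prx1 2, where the median nuclear member was 0.67 below the control mean, it was 0.09 below.

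Most genes of the rest of the respiratory chain and its supply had a lower mean too, 71 of 74 measured against 58.3% of all genes, whose median was -0.04. All 8 measured genes of complex II were lower (median -0.30), as were all 9 of complex III (-0.20), 10 of 12 of complex IV (-0.26) and 17 of 18 of complex V (-0.22). All 14 measured enzymes that make NADH in the matrix (-0.25), all 10 of iron-sulphur cluster assembly (-0.36) and all 3 supercomplex factors (-0.26) were lower as well. In the paired fit 4 of the 74 fell (5.41%), close to the 5.0% of all genes, and 1 rose, against 3.36%: Uqcr10 of complex III, Cox7a2 of complex IV, Atp5mpl of complex V and the supercomplex factor Higd1a fell, and Cox6a1 of complex IV rose. Cox6a1, named after its values were seen, had 10.28, 8.33, 8.45 and 8.29 in control and 10.81, 9.33, 9.14 and 8.90 in Nf1Prx1 triceps (0.71, SE 0.53, limma adjusted p = 0.615, paired 0.0139). It was highest on control 1 and Nf1Prx1 1. No list was tested as a list.

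Of 11 measured regulators of respiratory chain genes all had a lower mean (median -0.31), against 58.3% of all genes. In the paired fit 3 fell, against 5.0% of all genes: Tfb1m, Esrrb and Esrrg. Tfb1m, a mitochondrial ribosomal RNA methyltransferase, had 9.34, 9.40, 9.36 and 9.40 in control and 8.64, 8.5, 9.14 and 9.0 in Nf1Prx1 triceps (-0.56, SE 0.14, limma adjusted p = 0.168, paired 0.0378). Its groups did not overlap, with Nf1Prx1 1 and 2 lowest. Esrrb, an estrogen-related receptor, differed by -0.48 (SE 0.13, paired adjusted p = 0.0340), Tfam, which packages mitochondrial DNA, by -0.51 (SE 0.17, paired 0.0771), and Esrra by -0.28 (SE 0.10, paired 0.140). Esrrg differed by -0.42 (SE 0.23, paired adjusted p = 0.0340). The NRF1 gene itself, named after its values were seen, differed by -0.15 (95% interval -0.37 to 0.08).

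Markers of other cells and fibre types differed between the groups too, some lists lower and some higher. Their part in the result was not tested. Slow-fibre markers were lower, with a median over 8 genes of -1.20, and stood at -1.63, -1.55, 0.26 and -1.99 on Nf1Prx1 1 to 4. Of these genes 4 fell in the paired fit, against 5.0% of all genes: Myl2, Myl3, Tnnc1 and Tnni1. The array with no slow-fibre deficit, Nf1Prx1 3, was also the one with the smallest member deficit, while Nf1Prx1 4 had the lowest slow-fibre level and a member median of -0.20. Fast-fibre markers had a median of -0.12 over 9 genes, and stood at -0.37, -0.22, 0.01 and -0.02. Adipocyte markers were higher, 7 of 7 by the mean and 6 in the paired fit, against 3.36% of all genes in that fit. They stood at 3.23, 0.65, 1.26 and 1.78 on Nf1Prx1 1 to 4. On control 1 they stood at 1.86, against -0.77 to -0.40 on the other controls. Nf1Prx1 2, lowest in members, was thus the lowest Nf1Prx1 array in adipocyte markers. Macrophage markers (8 of 8) and fibroblast markers (6 of 6) were higher by the mean, at 0.54 and 0.57 over the list. Neutrophil markers were high on control 1 (1.84) and Nf1Prx1 1 (2.16) and between -0.70 and -0.04 elsewhere. Brown fat markers were high on the same arrays, with list medians of 0.91 and 1.14, but single genes stood much higher. Ucp1 was at 10.18 and 9.75 on these arrays, against 6.01 to 6.24 elsewhere. Cidea was at 10.26 and 10.38, against 5.8 to 6.32 elsewhere. Otop1 was higher there too, while Elovl3 lay within the range of the other arrays and Ppargc1a was lowest there. Endothelial markers (6 genes) stood at 0.25, -0.51, 0.10 and 0.26 on Nf1Prx1 1 to 4 and mural markers (8) at -0.04, -0.47, 0.06 and 0.15, so both lists were lowest on Nf1Prx1 2, as the members were. Schwann cell markers had a list median of 0.39 and erythroid markers -0.54, each over the 2 measured genes of 5 listed. The 2 erythroid genes went apart, with Alas2 at -1.17 (paired adjusted p = 0.0187) and Slc4a1 at 0.08. No marker has a true 0 on an array, so none was called absent.

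**Figure D4:**
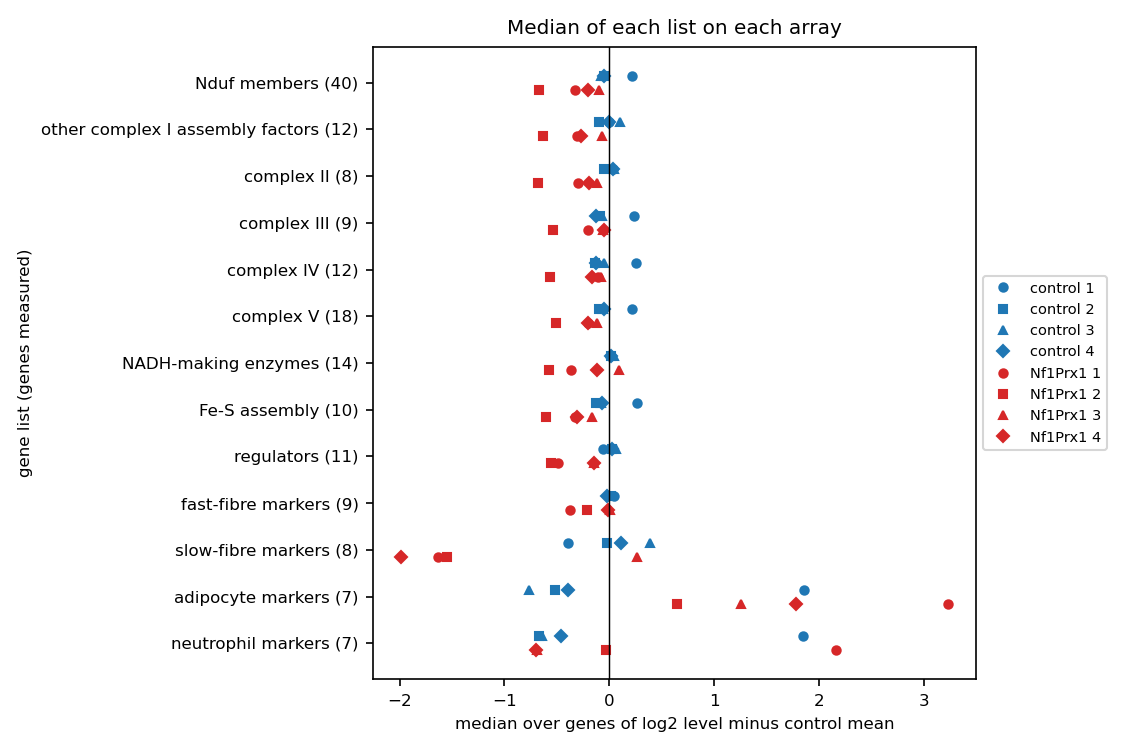
Median over the genes of each list of the log2 level minus the control mean (horizontal axis), for 4 control arrays (blue) and 4 Nf1Prx1 arrays (red), with shapes for the replicate number and the number of measured genes in brackets. The Nf1Prx1 2 square is leftmost among the respiratory lists, the slow-fibre list parts Nf1Prx1 3 from the other Nf1Prx1 arrays, and the adipocyte list parts control 1 from the other controls.

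Sex-linked transcripts split the arrays in a way the labels do not mention. Eif2s3y, of the Y chromosome, was above Xist on control 1, control 3, Nf1Prx1 1 and Nf1Prx1 2, and Xist was above it on the other 4 arrays. The paired fit, on which the word "fell" rests, thus joins arrays of different class for numbers 2 and 3. Within the arrays with Eif2s3y the median member differed by -0.59 with 38 of 40 lower, against 0.01 and 47.9% for all genes. Within those with Xist it differed by -0.11 with 25 of 40 lower, against -0.07 and 64.4% for all genes, so that count was no higher than the share of all genes. Core subunits were lower within the Eif2s3y arrays (6 of 6, median -0.50) and 1 of 6 was lower within the Xist arrays (median 0.05). A test of the difference between the splits (interaction term) called 0 genes and 0 members after adjustment, and 14 of 40 members had a limma unadjusted p under 0.05 for it, against 6.34% of all genes. Nf1Prx1 1 and 2 are both in the first set, so sex-linked class and these animals cannot be told apart. Ndufaf4 was lower within both sets, by -0.82 and -0.57, as was Ndufaf5, by -0.84 and -0.63. This was not particular to them, since Ndufa1 (-0.84 and -0.42), Ndufa4 (-0.84 and -0.41) and further members were lower within both sets too.

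In the authors' deposited table, which gives group values for pieces of a transcript (probe sets), most Nduf pieces were lower. It holds 241 probe sets of the 42 members, from 1 to 20 a gene, and 198 (82.2%) had a lower mean in Nf1Prx1 muscle, against 53.4% of all 234873. The median of these differences in the authors' deposited table was -0.19, against -0.03 for all, and 39 of 42 genes had a lower median over their probe sets. At an unadjusted p under 0.05, the authors' deposited table has 15 of the 241 Nduf probe sets lower and 2 higher. Of all 234873 probe sets 7.42% were lower and 16992 higher at that p. The lower Nduf count was thus no higher than the share of all probe sets. After adjustment computed here over the authors' deposited table none of them passed, against 0.0464% of all lower. Just 1 Nduf probe set, the third of 3 of Ndufaf4 (10503646), is among the 863 probe sets the authors listed as lower (0.367%), and none is among the 1797 listed as higher. It went from 7.5 to 6.8 in the authors' deposited table, 1.62-fold lower, with an adjusted p of 0.0880 computed here. All 12 probe sets of Ndufaf5 were lower in the authors' deposited table (median -0.53), and the seventh (10476576), from 9.5 to 8.8, is in the lower list. The authors' p values match an F test with 8 residual degrees of freedom, which implies 5 arrays a group, so the authors' deposited table could not be matched to the 8 arrays and its values are no repeat of the results above.

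**Figure D5:**
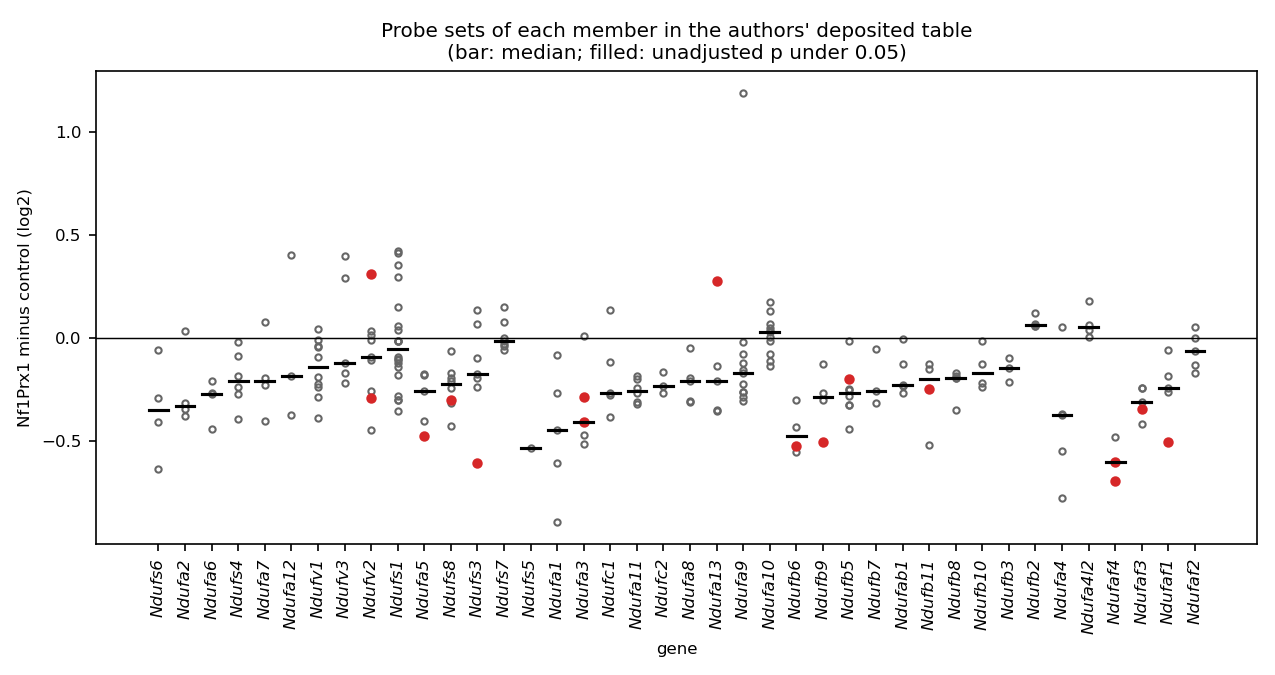
Difference between Nf1Prx1 and control in the authors' deposited table (log2, vertical axis) for each probe set of the 40 Nduf genes with a level per array (horizontal axis), with bars for the median of a gene and filled points for an unadjusted p under 0.05. Most points lie below 0, and the median bar of Ndufaf4, at -0.60, is the lowest.

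For 5 members a second cluster carried the same gene name on the same arrays. Whether the probes of both clusters read the same RNA was not tested, so the second is no separate repeat. Levels of the 2 clusters were nearly equal for Ndufab1 (10.56 and 10.57 on control 1) and Ndufs3 (12.06 and 12.06). The second cluster was lower in all 5: the pair of differences was -0.38 and -0.16 for Ndufa11, -0.38 and -0.38 for Ndufab1, -0.25 and -0.48 for Ndufb11, -0.40 and -0.45 for Ndufc1, and -0.26 and -0.29 for Ndufs3.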

How the data were processed

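Total RNA of 8 triceps muscles (4 control, 4 Nf1Prx1) was measured on 8 arrays, grouped by their titles. Per the submitters' processing notes, the authors made the deposited log2 values per transcript cluster by RMA in the Affymetrix Expression Console, with versions and genome build not given in the sources used here. Per the file headers, the authors' deposited table of 234873 probe sets holds group means of log2 intensity, a ratio, F scores and unadjusted p-values.

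Symbols came from the platform annotation, updated by Entrez ID (21698 of 21789 single-symbol clusters matched), and the cluster with the highest mean stood for a gene, which gave 19938 genes with no filter on dim ones. The comparison used limma 3.58.1 (R 4.3.3; moderated and two-sided, Benjamini-Hochberg over all genes, threshold 0.05), checked on simulated data. The named genes are, by rule, members with an unadjusted p under 0.05 or a paired call, the core subunits, the extremes of each role by difference, p or level, Ndufa1, Ndufa4 and Ndufa4l2, and the smallest p of other lists. Members, lists and tests were chosen with earlier results of these data known.

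Deviations of same-numbered control and Nf1Prx1 arrays had correlations across genes of 0.714, 0.574, 0.391 and 0.296 for numbers 1 to 4. Arrays of different numbers had -0.531 to 0.303. Number 4 was thus below the highest value for different numbers, and number 3 not far above it. A fit with the number as a block is given, although numbers 2 and 3 each join arrays of different sex-linked class. This pairing is read from the data, so its p values may be too small. Nothing says that numbers mark litters. Correlations between arrays were 0.928 to 0.994, and the number of arrays limits the precision. Motifs were searched in RefSeq windows, with the NRF1 and YY1 letters shortened by 1 base after a first search with longer forms. Tables were read with pandas 2.3.3 and scipy 1.17.1, and figures drawn with matplotlib 3.10.9.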

Additional observations from a re-analysis of the deposited data

Results flagged for a closer look

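Of 80 groups of 4 arrays (40 members in 2 groups), 15 held an array whose gap to the nearest other array exceeded Dixon's 95% critical share of the group's range for 4 samples, where chance gives about 1 in 20. Control 1 was the distant array in 8 of the 15 and Nf1Prx1 2 in 6. Control 1 stood high for Ndufa1 (gap 0.878 of the range; 9.64 against 8.82 to 8.92), Ndufa11 (0.934; 11.83 against 10.39 to 10.49), Ndufa7 (0.849; 10.72 against 9.97 to 10.08), Ndufb2 (0.921; 9.78 against 8.46 to 8.56), Ndufb8 (0.834; 11.29 against 10.39 to 10.54), Ndufb9 (0.863; 12.95 against 12.56 to 12.61) and Ndufs3 (0.861; 12.06 against 11.69 to 11.74). It stood low for Ndufa9 (0.980; 11.17 against 11.64 to 11.65). Nf1Prx1 2 stood low for Ndufa13 (0.872; 10.51 against 10.74 to 10.77), Ndufa2 (0.975; 9.44 against 10.26 to 10.28), Ndufa6 (0.909; 9.39 against 10.15 to 10.23), Ndufs4 (0.896; 11.46 against 11.93 to 11.99), Ndufs7 (0.939; 13.04 against 13.48 to 13.51) and Ndufv2 (0.832; 12.02 against 12.38 to 12.46). Nf1Prx1 1 stood high for Ndufa4l2 (0.857; 8.56 against 7.95 to 8.04).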

How the results depend on the processing

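Of 26 named members 16 kept their direction under all 23 alternatives, and the sign turned in 31 of 598 pairs of member and alternative. The cause of these changes was not tested. The members' median was -0.11 without 3 arrays (control 1, Nf1Prx1 1 and Nf1Prx1 2) and -0.59 and -0.11 within the Eif2s3y and the Xist arrays. In that order it was -0.076, -0.56 and -0.060 for the N module, -0.045, -0.52 and -0.071 for the Q module, -0.13, -0.59 and -0.13 for the proximal arm, -0.059, -0.63 and -0.037 for the distal arm and 0.062, -0.50 and 0.053 for the core subunits. The assembly factors were at -0.19 without 3 arrays and -0.18 within the Xist arrays.

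Members passing numbered 4 of 40 with the replicate block, 5 of 40 with array weights, and 1 each (Ndufaf4) without 3 arrays and within the Xist arrays. With array weights the members' median was -0.17, against -0.33 without them. The lowest weights were those of Nf1Prx1 2 (0.27), Nf1Prx1 1 (0.35) and control 1 (0.36), and the other arrays had 0.76 to 4.42. Of 19938 genes 1667 passed with the block, 3070 with array weights, 1215 without 3 arrays and 1092 within the Xist arrays. Without both arrays numbered 1 the count was 96, and after quantile normalization it was 5. Leaving out 1 array at a time, the unpaired fit called 0 to 3 genes and 0 members, with 7 (without Nf1Prx1 2) to 20 (without Nf1Prx1 3) members lower at an unadjusted p under 0.05. Without the arrays numbered 1 to 4 in turn the block gave 719, 1202, 206 and 50 genes and 1, 1, 3 and 0 members. Members lower at an unadjusted p under 0.05 numbered 24 with the block, 25 in it without number 3, 7 without 3 arrays and 8 within the Xist arrays.

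These signs turned. Within the Xist arrays the difference was 0.015 for Ndufaf2, 0.20 for Ndufs1, 0.060 for Ndufs3, 0.047 for Ndufs7, 0.12 for Ndufv1, 0.0048 for Ndufv2 and 0.037 for Ndufaf6. Without 3 arrays it was 0.17 for Ndufs1, 0.069 for Ndufs3, 0.055 for Ndufs7 and 0.12 for Ndufv1. With array weights it was 0.095 for Ndufs1, 0.045 for Ndufs7 and 0.015 for Ndufv1. Ndufa10 was at 0.039 after quantile normalization and 0.020 in the block without number 2, where Ndufs7 was at 0.050. Ndufb2 was at -0.18 within the Eif2s3y arrays, -0.053 in the block without number 3 and -0.037 without number 4. Ndufv3 was at -0.025 without both arrays numbered 1, with or without the block, and -0.0066 in the block without number 3. Leaving out 1 array at a time gave -0.084 to 0.15 for Ndufa4l2, -0.079 to 0.36 for Ndufb2, -0.31 to 0.0036 for Ndufs1, -0.11 to 0.045 for Ndufs7 and -0.065 to 0.10 for Ndufv3. Alternatives within the Eif2s3y or Xist arrays, and without 3 arrays, were chosen after the data were seen. Control means of members were 8.08 to 13.45, and no measure of background was used.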
